A study of Mus musculus with 6 samples.

Results

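The transcripts described here encode 10 regulators that set or read out cell identity in the mouse mammary gland: the hormone receptors Esr1, Pgr and Prlr, the luminal transcription factors and cofactor Gata3, Foxa1, Elf5 and Cited1, the basal factor Trp63, and the SOX factors Sox9 and Sox10. They were chosen by name, as the rows of the deposited normalised count table that carry these symbols, and all 10 were found among its 47729 genes. The table compares 4T1 with 4TO7, untreated cell lines from a BALB/c mouse mammary tumour grown in DMEM with serum, with 3 RNA-seq libraries of total RNA per line. As background, 4T1 is a metastatic line, and 4TO7 is a sister line that seldom forms overt metastases. Each line was grown in triplicate, but the labels do not say that the 3 cultures were independent. The p-values therefore set the line difference only against the spread among these samples within each line, and that spread may be technical. Values are normalised read counts, that is, reads divided by a size factor per library, and fold changes are 4T1 minus 4TO7 on the scale log2(value + 1).

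The mammary epithelium has an inner luminal layer, which holds hormone-sensing and milk-secreting cells, and an outer basal or myoepithelial layer. In the hormone-sensing luminal cells the oestrogen receptor acts together with the pioneer factor FOXA1 and with GATA3, and it induces the progesterone receptor, while the prolactin receptor signals through JAK2 and STAT5 and drives the milk-secreting programme together with ELF5. p63 maintains the basal layer, and SOX9 and SOX10 are active in luminal progenitor, basal and stem-like cells.

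The libraries held between 36842147 and 39072639 gene-assigned reads in 4T1, and between 33605566 and 36191540 in 4TO7. All 5 epithelial markers had reads in every library, and all 5 of 5 were higher in 4T1. Krt8, a keratin of simple epithelia, was at 47522 ± 6101 in 4T1 and 21578 ± 3811 in 4TO7 (SD, n = 3 each). Krt18 was at 62754 ± 6078 in 4T1 and 13535 ± 4763 in 4TO7. The other epithelial markers were far lower in 4TO7. Epcam, an epithelial adhesion molecule, was at 16980 ± 1871 in 4T1 and 23.7 ± 9.25 in 4TO7. Cdh1 was at 19352 ± 2121 in 4T1 and 170 ± 44.6 in 4TO7, and Krt7 at 42229 ± 3719 in 4T1 and 13.6 ± 4.66 in 4TO7. Markers of immune, endothelial and fat cells were low: 10 genes summed to 42.4 to 54.1 per library in 4T1 and 16.8 to 32.9 in 4TO7, and Cd3e was at 0 in all 6 libraries. Of the 10, the macrophage receptor Csf1r alone could be tested, and it was called higher in 4T1 after passing the testing level of 10 through 4T1 alone, which fixed its direction. On the second principal component 4TO7 replicate 2 stood apart, at 52.3 against −20.0 and −27.5 for the other 4TO7 libraries, and it also had the lowest 4TO7 value of all 4 testable regulators. Counts that change without it are given beside the results.

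Only Esr1, Gata3, Foxa1 and Sox9 had a normalised count of at least 10 in at least 3 libraries and could be tested. The other 6 regulators, Pgr, Prlr, Elf5, Cited1, Trp63 and Sox10, stayed below that level in every library. Of the 4 tested, 1 was higher in 4T1 (Esr1), 2 were higher in 4TO7 (Sox9 and Gata3) and 1 did not pass (Foxa1). The lines were widely different: limma called 6997 of 14276 genes at an adjusted p under 0.05 (49%), of which those higher in 4T1 were 25.1% of the tested genes and those higher in 4TO7 were 23.9%. The libraries of the lines did not overlap for 3 of the 4 regulators, and for 58.4% of all tested genes. A count of 3 in 4 is therefore not set apart from the background. The same shares are the background for the counts of the gene lists below. In bulk RNA, fewer cells expressing a gene and less RNA per cell cannot be told apart.

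**Figure D1:**
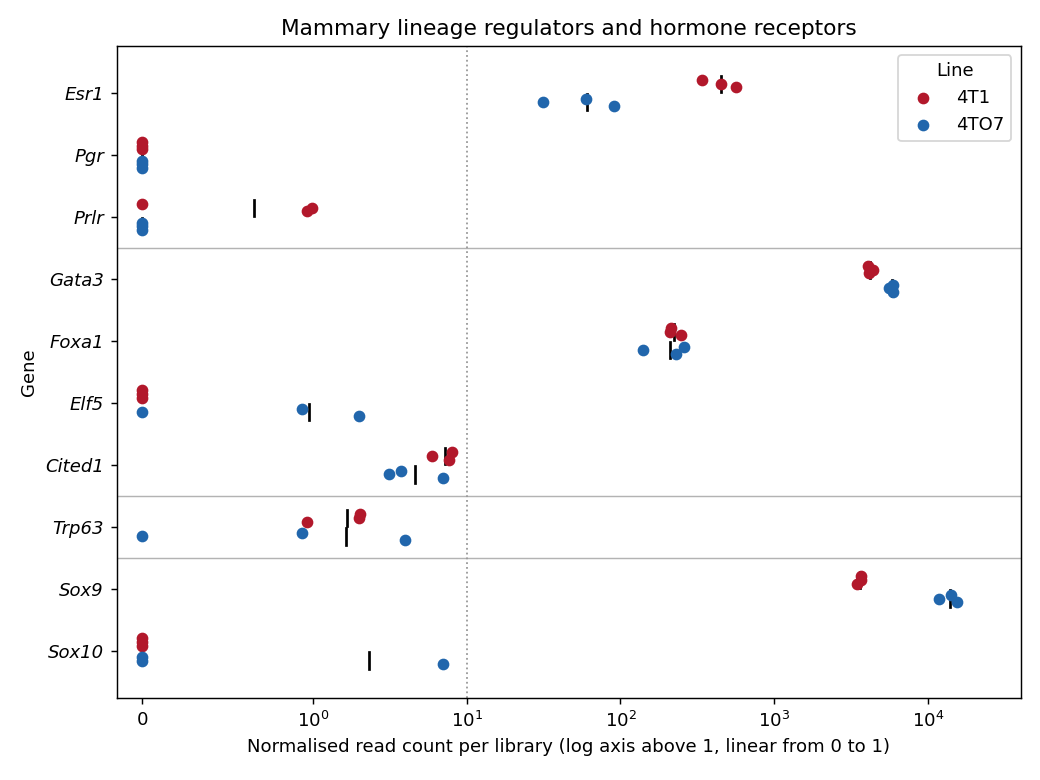
Normalised read count of each of the 10 regulators in each library, with 4T1 (red) above 4TO7 (blue), black bars at the line means and a dotted line at the testing level of 10; the axis is logarithmic above 1 and linear from 0 to 1. Esr1, Gata3 and Sox9 separate the lines, Foxa1 overlaps, and the other 6 genes lie below 10 in every library.

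The promoters of 4 of the regulators are shown because they pair receptor genes that differed in detection, Esr1 and Pgr, with the 2 luminal factors that both lines expressed, Gata3 and Foxa1. Each sequence is the 250 bases upstream of a RefSeq transcript start in GRCm38.p6, 5′ to 3′ on the gene's own strand, with matches to 4 short motifs in capitals. Esr1 has 2 windows in the table, and the one shown is the second, chr10:4709908-4710157 on the plus strand. The Pgr window is chr9:8899583-8899832 on the plus strand. The Gata3 window is chr2:9878601-9878850 on the minus strand, and the Foxa1 window is chr12:57546112-57546361 on the minus strand.
Esr1: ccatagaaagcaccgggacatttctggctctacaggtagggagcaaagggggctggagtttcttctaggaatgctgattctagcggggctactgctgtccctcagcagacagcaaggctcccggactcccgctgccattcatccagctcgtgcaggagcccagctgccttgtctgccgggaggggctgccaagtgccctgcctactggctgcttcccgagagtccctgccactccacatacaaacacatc
Pgr: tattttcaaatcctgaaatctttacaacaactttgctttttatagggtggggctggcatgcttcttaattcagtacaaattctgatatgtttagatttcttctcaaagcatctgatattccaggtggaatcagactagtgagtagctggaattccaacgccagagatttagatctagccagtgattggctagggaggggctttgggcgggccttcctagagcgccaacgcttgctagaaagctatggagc
Gata3: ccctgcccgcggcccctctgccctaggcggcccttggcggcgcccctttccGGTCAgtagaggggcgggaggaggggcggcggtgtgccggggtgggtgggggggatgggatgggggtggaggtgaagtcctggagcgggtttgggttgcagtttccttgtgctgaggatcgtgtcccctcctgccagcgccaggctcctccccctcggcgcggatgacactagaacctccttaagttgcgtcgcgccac
Foxa1: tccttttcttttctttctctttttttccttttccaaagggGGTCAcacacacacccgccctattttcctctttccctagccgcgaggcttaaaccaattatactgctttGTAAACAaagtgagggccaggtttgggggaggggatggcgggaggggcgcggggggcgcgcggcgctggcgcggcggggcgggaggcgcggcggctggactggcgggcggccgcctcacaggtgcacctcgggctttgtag

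The motifs were searched on both strands: GGTCA, the core of the oestrogen response element (found in 35.2% of 32851 mouse promoter windows of this length), the GATA motif GATAA (22.6%), the forkhead motif TGTTTAC (3.17%) and the SOX motif ACAAT (27.7%). Foxa1 held 1 GGTCA and 1 forkhead match, which reads GTAAACA on its own strand, Gata3 held 1 GGTCA, and the Esr1 and Pgr windows shown held none of the 4 motifs. The first Esr1 window, chr10:4611739-4611988 on the plus strand, held 1 GATA match, with 4 CpG and 47.6% G+C. Base composition differed between these promoters. The Gata3 and Foxa1 windows had 19 and 21 CpG dinucleotides and 70% and 62% G+C. The Esr1 window shown had 7 and 59.6%, and the Pgr window had 4 and 43.6%, against a median of 6 CpG over all windows. Among regulators with few reads whose windows are not shown, Cited1 had 13, 9 and 30 CpG in its 3 windows. The Prlr and Elf5 windows had 2 to 8. A link between base composition and expression was not tested. Of the 10 regulators, 7 had a window in the table; Sox9, Sox10 and Trp63 are named only. A match is a description of the letters, and no binding was measured.

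Among the hormone receptors, Esr1 was the only one above the testing level and it was several-fold higher in 4T1. Esr1, the ligand-activated receptor for oestradiol (ENSMUSG00000019768, GRCm38 chromosome 10, 4611593 to 5005614, plus strand), had normalised counts of 339, 450 and 564 in 4T1 and 59.9, 31.4 and 90.6 in 4TO7. These rested on 336, 452 and 584 reads in 4T1 and 64, 30 and 91 reads in 4TO7. Every 4T1 library was above every 4TO7 library, and both lines showed wide spread, with a coefficient of variation of 24.9% in 4T1 and 48.8% in 4TO7. The means were 451 ± 112 in 4T1 and 60.6 ± 29.6 in 4TO7 (SD, n = 3 each), a ratio of 7.44, which ran from 6.0 to 9.88 when 1 library was left out. On the log2 scale the difference was 2.97 (SE 0.39, 95% interval 2.08 to 3.86, limma adjusted p = 0.00042), larger in size than in 91.5% of tested genes. In the authors' deposited table, where folds run 4TO7 over 4T1, Esr1 stood at −2.89 on the log2 scale with an adjusted p of 3.85e-14. The level was low even in 4T1: 0.872 ± 0.214 RPKM (reads per kilobase of exon and per 1000000 reads) in 4T1 and 0.129 ± 0.0626 RPKM in 4TO7 (SD, n = 3 each), which placed it at percentile 22.4 of tested genes in 4T1 and 6.24 in 4TO7.

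Pgr, the progesterone receptor and a classical target of oestrogen receptor alpha, had 0 reads in all 6 libraries. Against 114704105 reads in 4T1 and 104742527 in 4TO7, a count of 0 allows up to 3 reads per line, or 0.0262 RPM (reads per 1000000 reads) in 4T1 and 0.0286 RPM in 4TO7. Prlr, the prolactin receptor, had 0, 1 and 1 reads in 4T1 and 0 in every 4TO7 library (exact permutation p = 0.4, two-sided, where the smallest p that 3 against 3 allows is 0.1). The pattern was thus an oestrogen receptor transcript measured in both lines beside progesterone and prolactin receptor transcripts at or near 0, and a line difference in Pgr or Prlr was not detectable at this depth.

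Relatives of the steroid receptors did not move as one group. Of 7 listed, 4 could be tested, 2 were higher in 4T1, 1 was higher in 4TO7 and 1 did not pass, with a median log2 difference of 0.36 against 0.03 over all tested genes. Esr2, the second oestrogen receptor, had 26.2, 30.9 and 23.2 in 4T1 and 6.55, 5.24 and 14.9 in 4TO7 (log2 difference 1.60, SE 0.40, limma adjusted p = 0.0114). As for Esr1, no 4TO7 library reached the lowest 4T1 library, but Esr2 rested on few reads in both lines. Esrra, an orphan receptor that regulates mitochondrial genes, was also higher in 4T1, at 1252 ± 144 in 4T1 and 696 ± 87.5 in 4TO7. Nr3c2, the mineralocorticoid receptor, was higher in 4TO7, at 17.8 ± 6.22 in 4T1 and 74.5 ± 34.6 in 4TO7 (SD, n = 3 each). The glucocorticoid receptor Nr3c1 had a log2 difference of −0.12 that did not pass. With a testing level of 50, 1 call of this list was left, that of Esrra, since Esr2 and Nr3c2 could no longer be tested.

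Genes known as oestrogen or progesterone receptor targets gave calls in both directions. Of 12 listed, 8 could be tested, 1 was higher in 4T1, 2 were higher in 4TO7 and 5 did not pass, with a median log2 difference of −0.09. Greb1, an oestrogen-induced cofactor of the receptor, had 0, 1 and 2 reads in 4T1 and 40, 14 and 52 reads in 4TO7. It was therefore higher in the line with less Esr1, with no overlap between the lines (log2 difference −4.14, SE 0.57, limma adjusted p = 0.000561), and it had passed the testing level through 4TO7 alone. From 3 reads in 4T1 and 106 reads in 4TO7 in sum, scaled by the size factors, the ratio for 4TO7 over 4T1 was 35.4 with a 95% counting interval of 11.8 to 174. Xbp1, a secretory-pathway factor, was also higher in 4TO7, at 3895 ± 764 in 4T1 and 6579 ± 355 in 4TO7. Areg, the EGF-family ligand that mediates oestrogen-driven duct growth, was higher in 4T1, at 1491, 1049 and 1065 in 4T1 and 217, 1019 and 200 in 4TO7. Of the 4TO7 libraries, replicate 2 alone lay close to the 4T1 values. The Areg difference was 1.74 (SE 0.56, limma adjusted p = 0.0317), it was 2.5 without 4TO7 replicate 2, and its call was lost under edgeR (adjusted p = 0.087), under DESeq2 (adjusted p = 0.139), with no filter on low values (limma adjusted p = 0.0693), without the trend and robust settings (limma adjusted p = 0.054) and without any other single library. Without 4TO7 replicate 2, 2 of the listed genes passed in each direction. The local progesterone signals Wnt4 and Tnfsf11 had at most a few reads, Calcr and Cxcl12 had 0 in all libraries, and Ccnd1, a cell-cycle cyclin, did not pass at 74847 ± 6426 in 4T1 and 90160 ± 3601 in 4TO7.

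**Figure D2:**
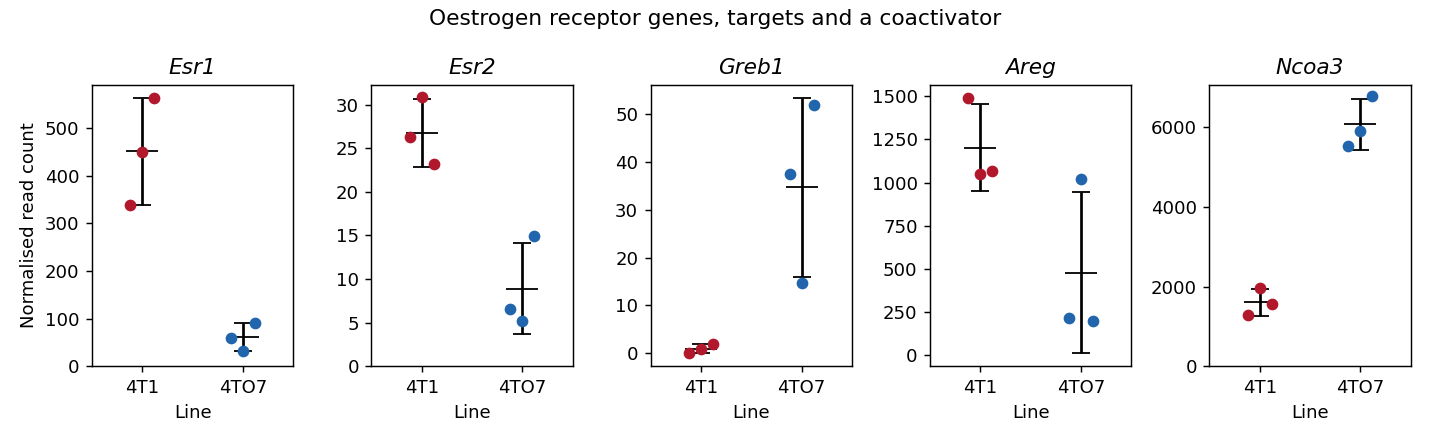
Normalised read count of Esr1, Esr2, Greb1, Areg and Ncoa3 in each of the 3 libraries of 4T1 (left, red) and 4TO7 (right, blue), with the mean and SD as bars; each panel has its own linear axis. Both oestrogen receptor genes are higher in every 4T1 library, Greb1 and Ncoa3 are higher in every 4TO7 library, and 1 4TO7 library of Areg lies near the 4T1 values.

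Transcripts of nuclear receptor coregulators gave calls in both directions. Of 15 coregulators listed, 14 could be tested, 2 were higher in 4T1, 6 were higher in 4TO7 and 6 did not pass, with a median log2 difference of −0.28. The 8 calls of 14 are near the 49% of all tested genes, and the split by direction was not tested. Ncoa3, a coactivator of oestrogen receptor alpha that is amplified in some human breast cancers, averaged 1609 ± 337 in 4T1 and 6071 ± 645 in 4TO7 (SD, n = 3 each; log2 difference −1.93, SE 0.18, limma adjusted p = 5.36e-05). Ncoa1, a coactivator of the same family, averaged 667 ± 199 in 4T1 and 1475 ± 245 in 4TO7, and Kmt2c, a histone methyltransferase, was lower in 4T1 by 1.40 on the log2 scale. Ppargc1b, a coactivator of oestrogen-related receptors, was higher in 4T1 (1.31, limma adjusted p = 0.0348), a call lost in 4 of the fits that left out 1 library. Without 4TO7 replicate 3, 5 of the 14 passed in either direction, against 8 with all libraries. The corepressor Ncor1 did not pass, with a log2 difference of −0.10.

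Prlr was near absent, but the genes listed for the prolactin pathway were all above the testing level. The list includes Ghr, the growth hormone receptor, chosen after its values were seen, which is not downstream of Prlr. Ghr averaged 2126 ± 430 in 4T1 and 2618 ± 1190 in 4TO7 (SD, n = 3 each) and did not pass. Of 8 listed, 1 was higher in 4T1, 3 were higher in 4TO7 and 4 did not pass, with a median log2 difference of −0.39. The 4 calls of 8 are near the 49% of all tested genes. Jak2, the kinase bound to the receptor, averaged 5225 ± 1106 in 4T1 and 3079 ± 339 in 4TO7 (limma adjusted p = 0.0107). The feedback inhibitors Cish, Socs2 and Socs1 were higher in 4TO7, with log2 differences of −1.02, −0.99 and −0.90 and limma adjusted p = 0.0413, 0.014 and 0.0299. For Cish, 4TO7 replicate 2 lay within the 4T1 range, at 137 against 105 to 139. Its call was lost without any other single library and without the trend and robust settings (limma adjusted p = 0.0511). The Socs1 call was lost under quantile normalisation (limma adjusted p = 0.0714) and without 4T1 replicate 1 or 3 or 4TO7 replicate 2 or 3. Of the 4 calls, 1 was left without 4T1 replicate 1 and 2 were left without 4T1 replicate 3 or without 4TO7 replicate 3. Stat5a and Stat5b, the factors the receptor activates, did not pass, and these genes also serve other cytokine receptors.

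Of the milk genes, Csn3, Xdh and Btn1a1 were measured well enough to test, and the others had a few reads in 4TO7 or none. Of 10 listed, 4 (Csn2, Wap, Lalba and Glycam1) had 0 reads in all 6 libraries and 3 could be tested. Csn3, kappa-casein, had 155 ± 51.5 in 4T1, whereas the 4TO7 libraries had 11261, 2663 and 12485. All 4TO7 libraries were far above 4T1, and replicate 2 was the lowest of them (log2 difference −5.59, SE 0.56, limma adjusted p = 8.81e-05, and −6.31 without 4TO7 replicate 2). Xdh, an enzyme of milk fat secretion, was higher in 4TO7 (log2 difference −1.03, limma adjusted p = 0.0185), a call lost without 4T1 replicate 1, 4T1 replicate 2 or 4TO7 replicate 3, at adjusted p-values of 0.0546 to 0.0811. Btn1a1, butyrophilin of the milk fat globule, was higher in 4T1, at 50.4 ± 8.31 in 4T1 and 1.97 ± 0.97 in 4TO7 (log2 difference 4.15), and it had passed the testing level through 4T1 alone.

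Among the luminal regulators, Gata3 was abundant in both lines and moderately higher in 4TO7, and Foxa1 was low and showed no passing difference. Gata3, a zinc-finger factor required for luminal cell fate (ENSMUSG00000015619, GRCm38 chromosome 2, 9857078 to 9890034, minus strand), had 4050, 4367 and 4126 in 4T1 and 5909, 5581 and 5910 in 4TO7. The lines did not overlap, and replicates were close within each line, with coefficients of variation of 3.96% in 4T1 and 3.27% in 4TO7. The means were 4181 ± 166 in 4T1 and 5800 ± 190 in 4TO7 (SD, n = 3 each), a ratio of 1.39 for 4TO7 over 4T1. On the log2 scale the difference was −0.47 (SE 0.12, 95% interval −0.74 to −0.20, limma adjusted p = 0.0105), larger in size than in only 43.0% of tested genes. Without 4TO7 replicate 1 the difference was −0.46 and no longer passed (limma adjusted p = 0.0522). The authors' deposited table gave a log2 fold change of 0.47 for 4TO7 over 4T1 with an adjusted p of 0.0017.

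The Gata3 locus holds other annotated genes, and the strand setting of the counting is not known. The antisense gene 4930412O13Rik, which shares no exon bases with Gata3, had 44, 40 and 43 reads in 4T1 and 110, 83 and 115 reads in 4TO7, at most 1.94% of the Gata3 reads of a library. It was likewise higher in 4TO7 (log2 difference −1.25, limma adjusted p = 0.00301). The same-strand gene 9230102O04Rik, which shares 77 exon bases with Gata3, had 56, 56 and 65 reads in 4T1 and 100, 41 and 51 reads in 4TO7. Its lines overlapped, and its reads were at most 1.58% of the Gata3 reads of a library. Gm13256, an antisense gene with 155 shared exon bases, had at most 0.174% of the Gata3 reads. These 3 genes were chosen after their values were seen.

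Foxa1, the forkhead pioneer factor that opens chromatin for the oestrogen receptor (ENSMUSG00000035451, GRCm38 chromosome 12, 57540628 to 57546916, minus strand), had 213, 210 and 248 in 4T1 and 259, 139 and 230 in 4TO7. The 4TO7 values enclosed those of 4T1. The means were 224 ± 21.1 in 4T1 and 210 ± 62.4 in 4TO7 (SD, n = 3 each), and the log2 difference was 0.14 (SE 0.27, limma adjusted p = 0.693). Its 95% interval ran from −0.47 to 0.75. A difference like that of Gata3, higher in 4TO7, lies at the lower edge of the interval. The same size in the other direction lies inside it. A difference of the size seen for Esr1 or Sox9 lies outside it in both directions. Without 4TO7 replicate 2 the sign turned, at −0.13 (limma adjusted p = 0.602).

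Elf5, the ETS factor of milk-secreting luminal progenitors, had 0 reads in every 4T1 library and 1, 0 and 2 reads in 4TO7 (exact permutation p = 0.4, two-sided). Cited1, a transcriptional cofactor of hormone-sensing luminal cells that binds the oestrogen receptor, had 8, 6 and 8 reads in 4T1 and 4, 3 and 7 reads in 4TO7. The lines overlapped at 1 4TO7 library, and the ratio of summed reads per line, 22 in 4T1 and 14 in 4TO7, was 1.57 with a 95% interval for counting error of 0.768 to 3.32 (exact permutation p = 0.2, two-sided). A difference between the lines in either gene was not detectable at this depth.

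Genes that mark luminal cells were mostly higher in 4T1 where they could be tested. Over all tested genes, 25.1% were higher in 4T1. Of 17 listed, 10 could be tested, 8 were higher in 4T1, 0 were higher in 4TO7 and 2 did not pass, with a median log2 difference of 1.78, and 2 of the 10 had passed the testing level through 4T1 alone. Krt19, a luminal keratin, averaged 4719 ± 1215 in 4T1 and 1.29 ± 1.12 in 4TO7, where it had 4 reads in all. Grhl2, a factor that maintains epithelial junction genes, averaged 2418 ± 160 in 4T1 and 31.9 ± 13 in 4TO7 (6.28). Ehf, an epithelial ETS factor, differed by 6.19, and Krt18, the partner of Krt8, by 2.28. Kit, Tbx3 and Msx2, markers of progenitor or hormone-sensing luminal cells, had 0 reads in all libraries, and Muc1 and Tfap2c did not pass. Without 4TO7 replicate 2, 8 passed as higher in 4T1, as before, and 1 passed as higher in 4TO7. In the same comparison the 5 epithelial markers had a median difference of 6.85. Krt8 and Krt18 are in both lists, and the part of the other epithelial markers in the luminal count was not tested.

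Close relatives of the regulators gave values on both sides. Of 23 listed relatives of the GATA, FOXA, ELF, p53, SOX and CITED families, 12 could be tested, 4 were higher in 4T1, 3 were higher in 4TO7 and 5 did not pass, with a median log2 difference of 0.09, and 2 of the 12, Sox13 and Cited4, had passed the testing level through 4T1 alone. Without 4TO7 replicate 2, 4 were higher in each line. Gata2, best known from blood and endothelial progenitors, averaged 38.4 ± 4.95 in 4T1 and 404 ± 28.0 in 4TO7 (SD, n = 3 each; −3.37, limma adjusted p = 6.53e-06), and Gata4, chosen after its values were seen, was higher in 4T1 (1.22). Cited4 averaged 14.2 ± 3.78 in 4T1, against 0 reads in every 4TO7 library, which makes it at least 14.3-fold higher in 4T1 over a floor of 3 reads per line. Foxa2, the relative of Foxa1 in endoderm, had 0 reads throughout, and Elf1, Elf2 and Elf4 did not pass.

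**Figure D3:**
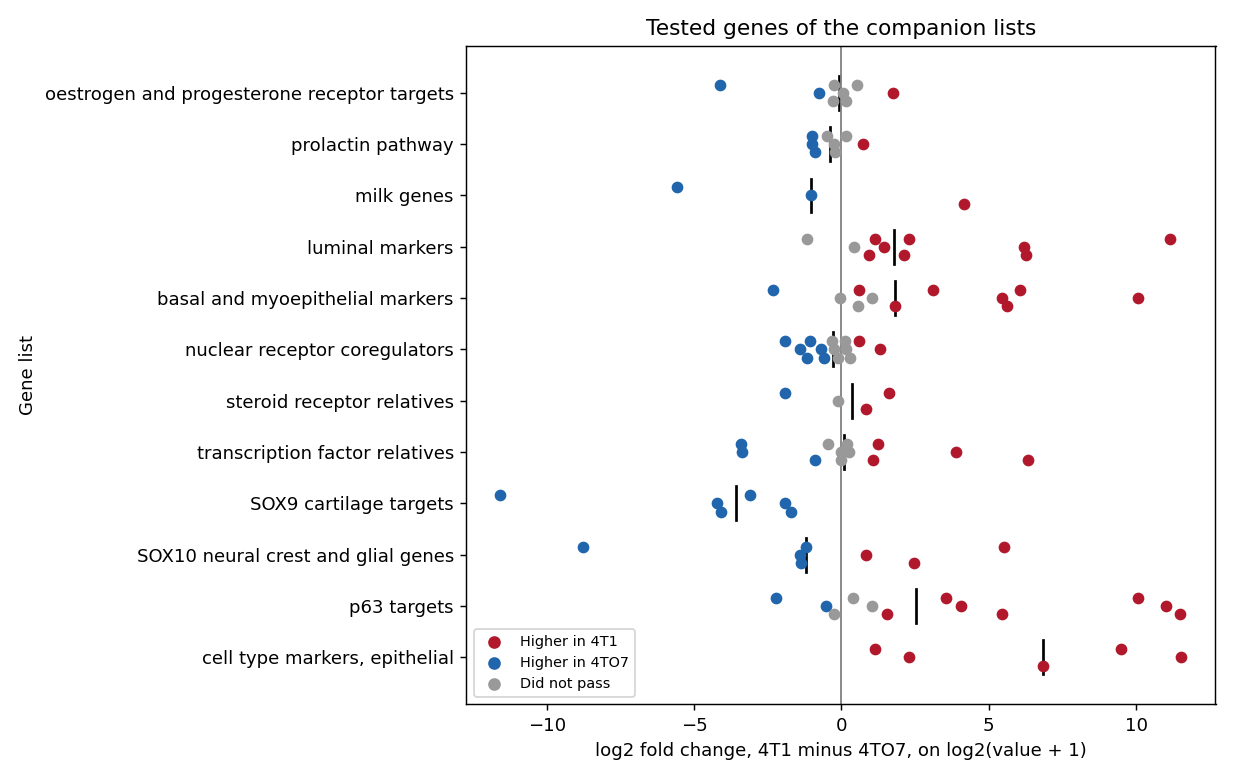
Each dot is 1 tested gene of a list (rows), placed at its log2 difference, 4T1 minus 4TO7; red is higher in 4T1, blue is higher in 4TO7 and grey did not pass at an adjusted p of 0.05, and black bars are list medians. Luminal, basal and p63 target lists have medians of 1.78, 1.82 and 2.53, the cartilage list has −3.59, and the oestrogen target list lies near 0.

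Trp63, which encodes the basal master regulator p63, was at the limit of detection, with 2, 2 and 1 reads in 4T1 and 1, 0 and 4 reads in 4TO7. The lines overlapped fully and each had 5 reads in sum (exact permutation p = 0.9, two-sided). Genes named as p63 targets were nevertheless measured: of 13 listed, 12 could be tested, 7 were higher in 4T1, 2 were higher in 4TO7 and 3 did not pass (8 and 2 higher without 4TO7 replicate 2), with a median log2 difference of 2.53, and 3 of the 12 had passed the testing level through 4T1 alone. Lamb3, a chain of laminin-332, averaged 5405 ± 1382 in 4T1 and 1.01 ± 1.00 in 4TO7 and had 3 reads in all of 4TO7. The ratio of its summed reads was 5476 for 4T1 over 4TO7, with a 95% counting interval of 1874 to 26560. Fermt1, an integrin adaptor of epithelia, also had 3 reads in 4TO7 (ratio 3732, interval 1277 to 18100). Jag2, a Notch ligand, averaged 767 ± 96.0 in 4T1 and 18.6 ± 10.1 in 4TO7. Pkp1, a desmosome protein, and Bnc1, a basal zinc-finger factor, both chosen after their values were seen, were higher in 4TO7, with log2 differences of −2.23 and −0.51.

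Basal and myoepithelial markers, which share 4 genes with the p63 targets, were mostly higher in 4T1 where they could be tested. The share higher in 4T1 over all tested genes was 25.1%. Of 19 listed, 11 could be tested, 7 were higher in 4T1, 1 was higher in 4TO7 and 3 did not pass. The median log2 difference was 1.82, and 3 of the 11 had passed through 4T1 alone. Luminal markers had a similar median of 1.78, and the 5 epithelial markers had one of 6.85. How far this wider epithelial difference enters the basal and p63 target counts was not tested. Krt14, the basal keratin, averaged 1363 ± 249 in 4T1 and had 1 read in all of 4TO7, a ratio of reads of 4136 (95% counting interval 742 to 163400). Krt17, a stress-associated basal keratin, had 250 reads in 4T1 and 1 read in 4TO7 (ratio 250, interval 44.4 to 9904), and Cdh3, P-cadherin, had 190 reads in 4T1 and 1 read in 4TO7 (ratio 190, interval 33.7 to 7536). Krt5, the usual partner of Krt14, had 0 reads in 4T1 and 1 read in 4TO7. The contractile gene Acta2 had 2 reads in 4T1 and 2 reads in 4TO7. The other markers under the testing level, Myh11, Oxtr, Cnn1, Tagln, Snai2 and Lgr5, had at most 5 reads in a library. Mylk, myosin light chain kinase, chosen after its values were seen, was higher in 4TO7, at 223 ± 18 in 4T1 and 1159 ± 360 in 4TO7 (log2 difference −2.32). The transcripts present in 4T1 thus included Krt14 but neither its partner Krt5 nor Trp63 above a few reads.

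Of the SOX factors, Sox9 was abundant in both lines and higher in 4TO7, and Sox10 was nearly absent. Sox9, which acts in luminal progenitors and in cartilage (ENSMUSG00000000567, GRCm38 chromosome 11, 112782224 to 112787760, plus strand), had 3682, 3696 and 3457 in 4T1 and 14148, 11888 and 15442 in 4TO7. Every 4TO7 library was above every 4T1 library by more than the whole range within either line. The means were 3611 ± 134 in 4T1 and 13826 ± 1799 in 4TO7 (SD, n = 3 each), a ratio of 3.83 for 4TO7 over 4T1, which stayed between 3.61 and 4.10 with 1 library left out. On the log2 scale the difference was −1.93 (SE 0.14, 95% interval −2.24 to −1.61, limma adjusted p = 1.16e-05), larger in size than in 86.5% of tested genes. The authors' deposited table gave 1.94 for 4TO7 over 4T1 with an adjusted p of 3.23e-30.

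Sox10, a factor of neural crest, glia and mammary stem-like cells, had 0 reads in 4T1 and 0, 0 and 7 reads in 4TO7. All of its reads came from 4TO7 replicate 3 (exact permutation p = 1, two-sided). Genes of the neural crest and glial programme gave a mixed picture: of 14 listed, 7 could be tested, 3 were higher in 4T1, 4 were higher in 4TO7 and 0 did not pass, with a median log2 difference of −1.20. Ngfr, the p75 neurotrophin receptor, averaged 14.9 ± 4.16 in 4T1 and 7150 ± 2411 in 4TO7 (−8.78, limma adjusted p = 2.90e-07). By contrast, Pmp22, a myelin protein, averaged 437 ± 35.5 in 4T1 and 9.90 ± 6.97 in 4TO7 (5.51), and Erbb3, a neuregulin receptor, averaged 1330 ± 498 in 4T1 and 239 ± 103 in 4TO7 (2.48). Foxd3, Ednrb and Dct had 0 reads throughout.

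The SOX relatives included some of the wider differences. Sox5, a partner of SOX9 in cartilage, averaged 236 ± 56.2 in 4T1 and 2504 ± 421 in 4TO7 (SD, n = 3 each; log2 difference −3.42, SE 0.22, limma adjusted p = 7.34e-06), while Sox6, the other partner, had 1 read in each line. Sox13 was higher in 4T1, at 296 ± 81.6 in 4T1 and 3.88 ± 3.55 in 4TO7 (6.35, SE 0.71, and 5.43 without 4TO7 replicate 2), and had passed through 4T1 alone. Sox4 did not pass, at 13399 ± 587 in 4T1 and 18688 ± 4054 in 4TO7.

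Genes that SOX9 controls in cartilage were low in 4T1, and those tested were higher in 4TO7. Of 13 listed, 6 could be tested and all 6 were higher in 4TO7, with a median log2 difference of −3.59 (−3.56 with genes at 0 set to their bound), but 4 of the 6 had passed the testing level through 4TO7 alone and had to differ. The count was 5 without the trend and robust settings and in each fit that left out 1 library, except 6 without 4TO7 replicate 2, and it was 1 with a testing level of 50. Col9a1, a collagen that coats cartilage fibrils, had 1, 1 and 0 reads in 4T1 and 7069, 1827 and 9063 reads in 4TO7. As for Csn3, its lowest 4TO7 value was in replicate 2. The ratio of its summed reads was 8988 for 4TO7 over 4T1, with a 95% counting interval of 2488 to 74220, and the log2 difference was −11.58, or −12.25 without 4TO7 replicate 2. Col10a1, the collagen of hypertrophic cartilage, had 0 reads in 4T1, against 16, 17 and 15 reads in 4TO7, and Col11a1 had 0 reads in 4T1, against 24, 14 and 17 reads in 4TO7. Over a floor of 3 reads per line these were at least 16.1-fold and at least 18.2-fold higher in 4TO7. Col2a1, the main cartilage collagen, chosen after its values were seen, had 12.1, 16.9 and 21.2 in 4T1 and 115, 18.9 and 125 in 4TO7, so 4TO7 replicate 2 lay within the 4T1 range (limma adjusted p = 0.0418). Acan, the cartilage proteoglycan, had at most 2 reads in a line, and Matn1 and Chad had 0.

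Set on a per-length scale, the regulators fell into an abundant pair, a low pair and a group at or near 0. RPKM divides by the total gene-assigned reads of a library, not by the size factor. Ratios between the lines therefore differ from those of the normalised counts, and the mean of Foxa1 is slightly higher in 4TO7 here. In 4T1, Gata3 was first with 27.4 to 28.4 RPKM and Sox9 second with 22.2 to 24.0, without overlap. In 4TO7 the order was the opposite, with Sox9 at 81.6 to 107 and Gata3 at 39.8 to 43.9, also without overlap. Foxa1 came next in both lines, at 1.78 ± 0.178 in 4T1 and 1.83 ± 0.573 in 4TO7 (SD, n = 3 each), followed by Esr1. In 4T1 the levels of Foxa1 (1.64 to 1.98) and Esr1 (0.668 to 1.09) were apart and so was Cited1 below them, at a mean of 0.110. In 4TO7 Esr1 (0.0654 to 0.191) overlapped Cited1 (0.0509 to 0.114), so these neighbours were not distinguished by their spread. Among all tested genes Sox9 lay at percentile 82.5 in 4T1 and 97.2 in 4TO7, and Gata3 at percentile 85.8 in 4T1 and 91.7 in 4TO7.

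**Figure D4:**
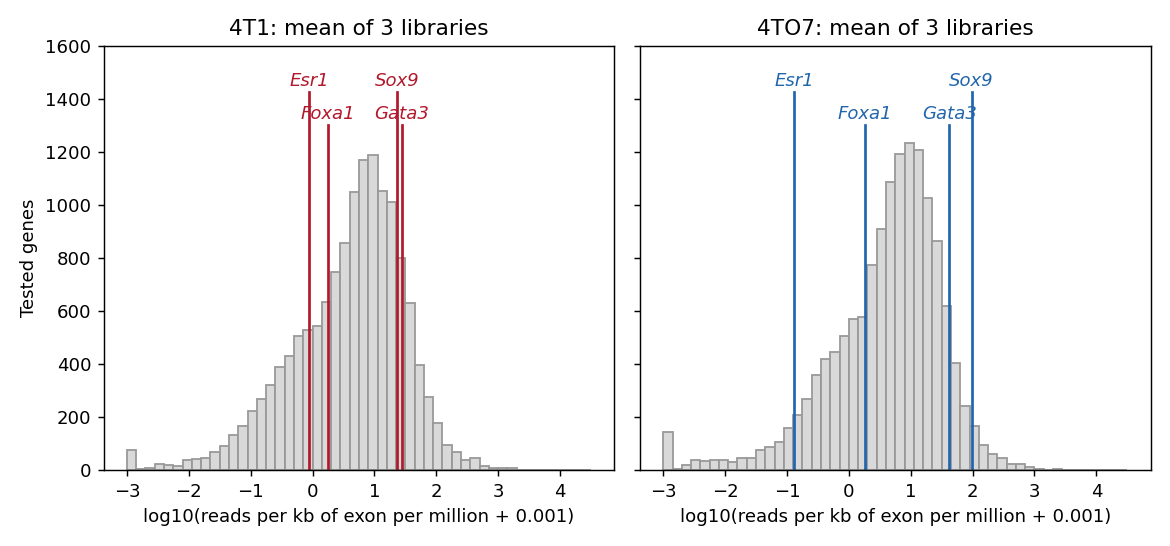
Number of tested genes by their mean level in 4T1 (left) and 4TO7 (right), as log10 of RPKM plus 0.001, with lines at the 4 tested regulators. Sox9 and Gata3 lie in the upper part of both distributions and change order between the lines, Foxa1 keeps its place, and Esr1 lies lower in 4TO7.

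The signs of the differences in Esr1, Sox9 and Gata3 were the same in all alternatives run. The Esr1 difference ran from 2.57 to 3.32, that of Sox9 kept adjusted p-values from 3.9e-31 to 0.000258, and that of Gata3 ran from −0.60 to −0.45. Foxa1 ran from −0.13 to 0.32 and passed in none.

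**Figure D5:**
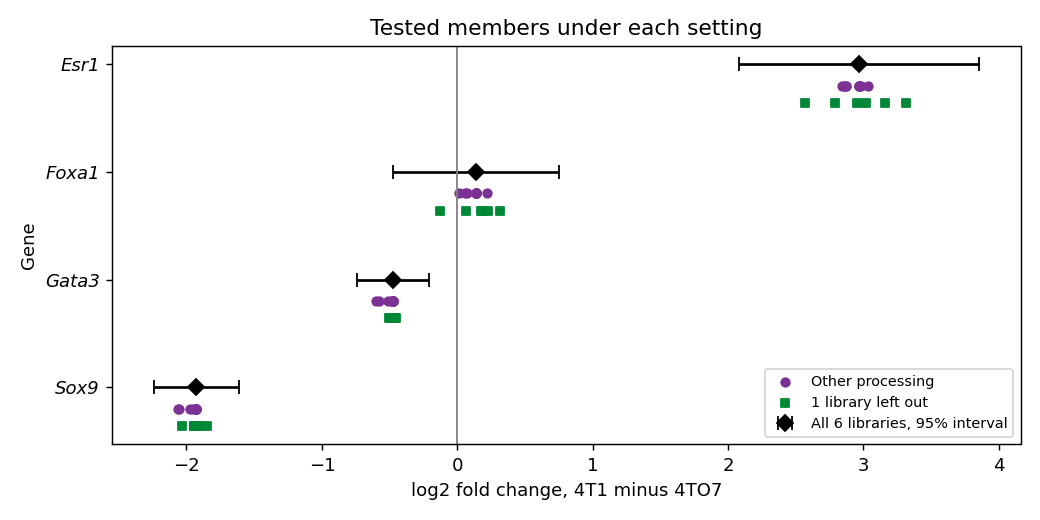
Log2 difference, 4T1 minus 4TO7, of the 4 tested regulators: black diamonds with 95% intervals are the values from all 6 libraries, purple dots are other processing settings and green squares leave out 1 library. Esr1, Gata3 and Sox9 stay on 1 side of 0, and Foxa1 crosses it.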

How the data were processed

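Gene reads of 3 4T1 and 3 4TO7 libraries were analysed from 1 deposited table of 47729 genes. The submitters' processing notes name STAR 2.5, featureCounts 1.5, DESeq2 (no version) and GRCm38, without their order. The deposited values are a signal: the authors' read counts divided by a size factor per library (0.954 to 1.07), per the file headers. It also holds, as deposited, the authors' log2 fold changes with standard errors, a test score, p-values and adjusted p-values. Every value was a whole multiple of the value of 1 read (tolerance 1e-06; 100% of values), so reads were recovered.

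The deposited values were tested with limma 3.58.1 (R 4.3.3; intensity trend, robust) on log2(value + 1), line as the only term, over the 14276 genes with at least 10 in at least 3 of 6 samples, two-sided, Benjamini-Hochberg threshold 0.05. This scale understates changes of genes with few reads. RPKM used GENCODE vM21 exon unions and total gene-assigned reads per library, not the size factors. Promoters are RefSeq, GRCm38.p6. Intervals on reads (95%, exact) and the floor of 3 reads per line cover counting error only.

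The 10 regulators and 13 companion lists (159 genes, all found) were chosen with earlier results of these data known. Named genes are the 10 regulators and up to 4 called genes per list with the greatest log2 difference in size; other genes named were chosen after their values were seen. Some genes of the lists enter the counts and medians but are not reported here by name. Alternatives changed the pseudocount, the filter, the scaling, the variance model and the libraries used, added a replicate block, and ran edgeR 4.0.16 and DESeq2 1.42.0 on the recovered reads.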

Additional observations from a re-analysis of the deposited data

How the results depend on the processing

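Of 742 alternative values over 47 genes, 712 kept direction and side of the threshold, 29 no longer passed and 1 reversed: Foxa1, at −0.13 without 4TO7 replicate 2 (0.32 without 4TO7 replicate 1, the other end of its range). The cause was not tested. The number of regulators higher in 4TO7 ranged from 1 to 2 with 1 library left out, 1 being without 4TO7 replicate 1 (Gata3). Calls over all genes ranged from 5242 without 4TO7 replicate 1 to 8064 without 4TO7 replicate 2, with 6967 by edgeR and 7306 by DESeq2. Equal totals moved the median log2 difference of all genes to −0.10, against 0.03. Of the 6 regulators with few reads, Pgr at 0 could not be compared, and limma with no filter gave the other 5 adjusted p-values of 0.181 to 0.739. With the replicate number as a block 7750 genes were called, and still 1 regulator was higher in 4T1 and 2 in 4TO7. Same-numbered libraries correlated in their deviations at −0.01, 0.27 and 0.33, and not every library correlated best with its own number, so the numbers are not treated as pairing.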
